A study of Mus musculus with 24 samples.

Results

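RNA was sequenced from the whole kidneys of 24 mice, and 8 podocyte genes were followed through all 6 genotype groups. The genes were Nphs1, Podxl, Wt1, Ptpro, Magi2, Synpo, Plce1 and Nes. They were taken as the rows of the count table that carry these symbols. Each symbol matched 1 of the 54532 genes in the table, and all 8 passed the expression limit that left 22570 genes for testing. In the cystic RC/- kidneys, 5 of these genes fell (Nphs1, Podxl, Wt1, Ptpro and Magi2) and 3 rose (Synpo, Plce1 and Nes) against RC/+ kidneys, where 12.2% of all tested genes were called lower and 25.5% higher. The Nes call was lost in 4 of 9 alternative fits and in 3 of 8 fits that left out 1 kidney. Those 5 genes were higher, and Synpo and Plce1 lower, in RC/- kidneys with the D18 deletion (14.3% of all genes higher, 26.9% lower) and with the D53 deletion (11.3% and 18.9%) than in RC/- kidneys. The lower calls were less stable. Synpo lost its call in 6 of 9 alternative fits for D53 and in 1 of 9 for D18, and Plce1 in 1 of 9 for D53.

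Podocytes are the epithelial cells that wrap the capillaries of the glomerulus, the filtering unit of the kidney. Their interdigitating foot processes are bridged by the slit diaphragm, a protein junction built around nephrin, and they rest on an actin skeleton that keeps their shape. Nphs1 codes for nephrin, Magi2 for a scaffold protein that binds nephrin at the slit, and Ptpro for a receptor tyrosine phosphatase of the podocyte surface. Podxl codes for podocalyxin, the charged sialomucin that keeps foot processes apart and is also made by vascular endothelium. Wt1 is a zinc finger transcription factor that podocytes keep expressing after development. Synpo codes for synaptopodin, which binds actin and alpha-actinin in foot processes, Plce1 for a phospholipase C, and Nes for nestin, an intermediate filament protein that other cell types, such as progenitor and mesenchymal cells, also make. Mutation of Nphs1, Wt1, Ptpro, Magi2 or Plce1 is known to cause nephrotic syndrome in people.

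All mice were C57BL/6 by the labels (the J substrain by the study's methods), were 18 days old and carried 1 Pkd1 allele with RC, a missense change that lowers functional polycystin-1. Pkd1 is the main gene mutated in autosomal dominant polycystic kidney disease. The other Pkd1 allele was a floxed allele, intact in RC/+ mice ("control" in the labels) and inactivated in RC/- mice ("cystic") by Ksp-Cre, a Cre transgene driven by the promoter of a cadherin of kidney tubule epithelium. By this breeding scheme the RC/- mice carried Cre and the RC/+ mice did not, so the Cre transgene and the cystic genotype cannot be told apart. Whether the floxed allele was lost in podocytes themselves was not tested. D18 and D53 mark mice whose RC allele lacked the miR-17 binding motif of the Pkd1 3′ UTR, which the study deleted to release Pkd1 from this microRNA. All D18 mice came from founder 3 and all D53 mice from founder 2, so that each edited line stands for 1 editing event. There were 3 mice in each of the groups RC/+ (replicates 4 to 6), RC/+ D18 (7 to 9) and RC/+ D53 (10 to 12), and 5 mice in each of the groups RC/- (13 to 17), RC/- D18 (18 to 22) and RC/- D53 (23 to 27).

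The study's edit concerned miR-17, so its mature sequence is shown with the seed (bases 2 to 8) in capitals, followed by the only stretches of the annotated 3′ UTRs of the 8 genes that hold the seed match GCACTTT, in capitals. The microRNA lies on chr14:115043684-115043706, plus strand (RefSeq, GRCm38.p6). The Ptpro stretch is chr6:137462969-137462997 and the Magi2 stretch chr5:20703606-20703634, both on the plus strand of GRCm38.
mmu-miR-17-5p: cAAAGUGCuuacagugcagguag
Ptpro 3′ UTR: gctgtaaaaatGCACTTTctttctccacc
Magi2 3′ UTR: gctcttcatttGCACTTTgacaaagtatt
Ptpro and Magi2 held 1 match each, and Nphs1, Podxl, Wt1, Synpo, Plce1 and Nes held none. Among 16458 tested genes with an annotated 3′ UTR, 15.1% held the match. The letters are a description and not a shown binding site. The edit took the motif from Pkd1 only, and by the study's account miR-17 could still act on its other targets.

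Because Wt1 is itself a transcription factor, the promoters of the other members were read for 2 cores of known Wt1 sites, GCGTGGG and GTGGGAG, on both strands. RefSeq promoter windows of 250 bases before to 50 after the gene start (GRCm38.p6) were at hand for Nphs1, Ptpro, Plce1, Nes and, with 2 starts, Magi2. The 2 stretches that hold a core are shown on the plus strand with the core in capitals. The Ptpro stretch is chr6:137252253-137252281, with the core 35 bases before the start. The Magi2 stretch is chr5:19226918-19226946, with the core (GCGTGGG on the minus strand) 117 bases before the start.
Ptpro promoter: ggcaggccctgGTGGGAGgacccaagatc
Magi2 promoter: tcctccccaccCCCACGCcacccgctcac
Over 32851 promoters of the same length, 5.04% held GCGTGGG and 9.73% held GTGGGAG. The E-box CANNTG was in 4 of the 6 windows and in 72.3% of all promoters.

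Libraries held 20379982 to 30837488 counts, and the lowest count of a member in any library was 111 reads, for Magi2 in an RC/- library. Libraries 20 to 27 (3 of the RC/- D18 and every RC/- D53 kidney) stood apart by their reads from 6 skeletal muscle genes, which summed to 147 to 194 CPM (a gene's reads per 1000000 counts of the library) there and to 5.27 to 9.36 CPM in the other 16 libraries. Of the 6 muscle genes, Myh4, Ckm, Tnnt3 and Myh1 were at 0 reads in at least 1 of these other libraries. Median log2 fold changes of all tested genes under the total-count scaling used here were 0.14 for RC/- against RC/+, -0.10 for RC/- D18 against RC/- and -0.08 for RC/- D53 against RC/-, and 0.01, 0.00 and 0.00 under trimmed mean of M values (TMM) scaling. Genes whose log2 CPM averaged -3 or more were tested with limma in 1 fit of all 24 libraries, and a gene was called higher or lower where its p, adjusted over all 22570 genes tested, was below 0.05. In bulk kidney RNA, fewer podocytes, less RNA per podocyte and a larger share of RNA from other cells cannot be told apart.

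Per kb of annotated exon, Podxl had the highest level of the 8 genes in every group, at 55.2 ± 3.46 CPM per kb (SD, n = 3) in RC/+ kidneys. It was followed in RC/+ by Nes (10.8 ± 1.93) and Synpo (9.02 ± 0.504), whose levels differed by less than the SD of Nes. Next in RC/+ came Nphs1 (4.92 ± 0.639), Wt1 (4.61 ± 0.322) and Ptpro (3.88 ± 0.318), of which Nphs1 and Wt1 lay within 1 SD of each other. Plce1 (0.971 ± 0.129) and Magi2 (0.880 ± 0.124) were lowest and also lay within 1 SD of each other. In RC/- kidneys (n = 5), Wt1 (2.47 ± 0.677), Ptpro (2.01 ± 0.473) and Nphs1 (2.00 ± 0.525 CPM per kb) were level within their SD, while Plce1 (1.51 ± 0.110) was above Magi2 (0.498 ± 0.0772).

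The first comparison asked how podocyte transcripts differed between cystic RC/- and noncystic RC/+ kidneys with the unedited Pkd1 3′ UTR. Nephrin's gene Nphs1 (chr7:30458315-30487223, plus strand) fell most. Its levels were 32.7, 36.7 and 28.2 CPM in the 3 RC/+ kidneys and 18.7, 10.3, 11.8, 10.8 and 14.7 CPM in the 5 RC/- kidneys. Every RC/- kidney was below every RC/+ kidney, and the fitted level was 2.49-fold lower (log2 fold change -1.32, SE 0.16, adjusted p = 5.00e-07, limma). Within its exons, 11.8% of bases overlap Nphs1os (0 to 1 reads per library) or the pseudogene Rps12-ps4 (0 to 18 reads) on the other strand. Annotated Nphs1 transcripts also hold an aligned stretch of 266 bases that is 99.2% identical to the ribosomal protein gene Rps12. The effect of this likeness on the Nphs1 counts was not tested.

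Podxl (chr6:31519488-31563981, minus strand) was at 307, 282 and 319.5 CPM in RC/+ kidneys and at 193, 136, 138, 134 and 174 CPM in RC/- kidneys. The groups did not overlap, and Podxl was 1.97-fold lower in RC/- (log2 fold change -0.98, SE 0.11, adjusted p = 2.47e-07). The phosphatase gene Ptpro (chr6:137252319-137463233, plus strand) was at 26.7, 27.9 and 23.7 CPM in RC/+ and at 17.4, 10.7, 11.9, 11.1 and 16.5 CPM in RC/-. It was 1.96-fold lower, again without overlap (log2 fold change -0.97, SE 0.14, adjusted p = 8.42e-06).

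For the transcription factor gene Wt1 (chr2:105126529-105173616, plus strand), the RC/+ kidneys gave 26.3, 30.0 and 29.4 CPM and the RC/- kidneys 22.2, 11.99, 12.4, 13.7 and 16.1 CPM. RC/- replicate 13 came nearest to the RC/+ range but stayed under it, and the fitted level was 1.91-fold lower (log2 fold change -0.93, SE 0.19, adjusted p = 4.36e-04). The slit scaffold gene Magi2 (chr5:19227036-20704792, plus strand) gave 10.5, 11.1 and 8.39 CPM in RC/+ and 5.43, 5.79, 5.32, 4.66 and 7.03 CPM in RC/-. It was 1.76-fold lower, without overlap (log2 fold change -0.82, SE 0.12, adjusted p = 1.32e-05). RC/- replicates 13 and 17 were the highest RC/- kidneys for Nphs1, Podxl, Wt1 and Ptpro.

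The other 3 genes went the opposite way. The foot process gene Synpo (chr18:60593973-60660142, minus strand) was at 81.1, 90.6 and 86.4 CPM in RC/+ kidneys and at 122, 92.3, 114, 122 and 153 CPM in RC/- kidneys. RC/- replicate 14 was close to the highest RC/+ kidney, the others were well above it, and Synpo was 1.39-fold higher in RC/- (log2 fold change 0.47, SE 0.12, adjusted p = 0.00337). The phospholipase gene Plce1 (chr19:38481109-38785030, plus strand) was at 13.4, 17.5 and 15.7 CPM in RC/+ and at 25.4, 21.1, 24.5, 24.2 and 25.3 CPM in RC/-, and was 1.56-fold higher without overlap (log2 fold change 0.64, SE 0.12, adjusted p = 1.40e-04). Nestin's gene Nes (chr3:87971078-87980451, plus strand) was at 75.4, 77.5 and 55.0 CPM in RC/+ and at 112, 85.9, 87.1, 78.2 and 99.8 CPM in RC/-. The lowest RC/- kidney exceeded the highest RC/+ kidney by under 1 CPM, and Nes was 1.34-fold higher (log2 fold change 0.42, SE 0.16, adjusted p = 0.0427). The Nes call was the least stable of the 8. It was lost without RC/+ replicate 6 (log2 fold change 0.26, adjusted p = 0.278), RC/- replicate 13 (0.35, adjusted p = 0.102) or RC/- replicate 17 (0.39, adjusted p = 0.0809), and under TMM scaling (0.28, adjusted p = 0.145), edgeR (0.28, adjusted p = 0.155) and DESeq2 (0.28, adjusted p = 0.147). It was also lost with no expression limit (0.42, adjusted p = 0.0713), which left more genes to adjust over.

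**Figure D1:**
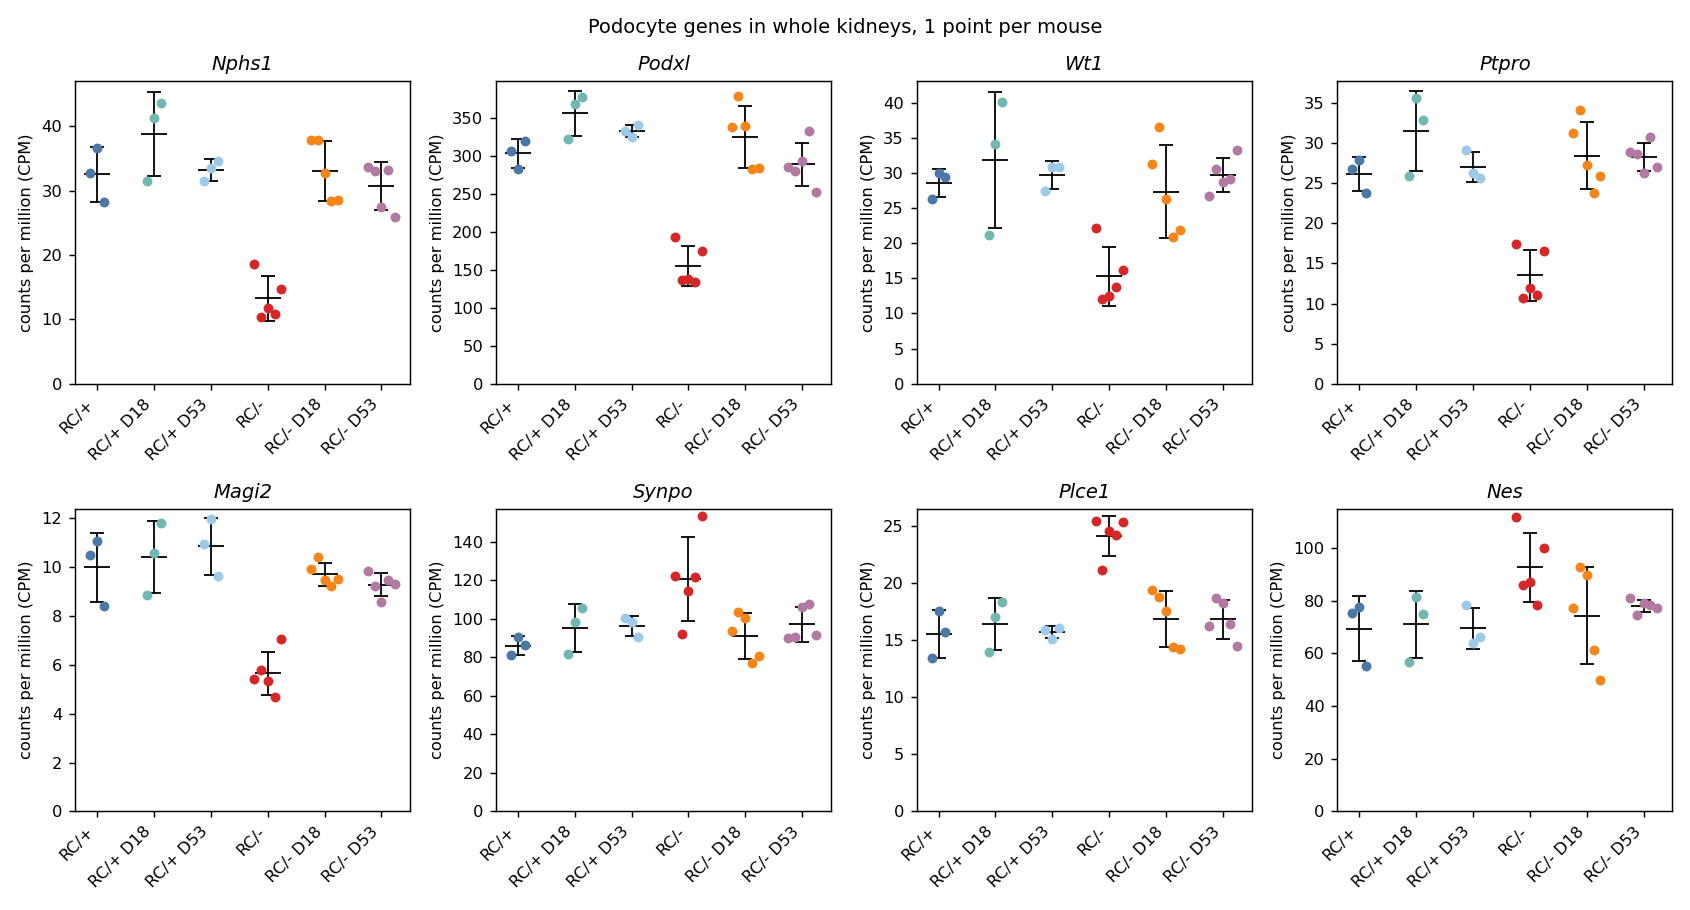
CPM of the 8 podocyte genes by genotype group, with 1 point per mouse and the group mean ± SD as a line with bars (n = 3 for RC/+, RC/+ D18 and RC/+ D53, n = 5 for RC/-, RC/- D18 and RC/- D53). The 5 RC/- kidneys without a deletion lie below the 3 unedited RC/+ kidneys for Nphs1, Podxl, Wt1, Ptpro and Magi2 and above these 3 for Synpo, Plce1 and Nes; some RC/+ D18 or RC/+ D53 kidneys overlap with them for Wt1, Synpo and Nes, while the RC/- D18 and RC/- D53 kidneys lie near the RC/+ groups.

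Over the 8 genes, 5 were called lower and 3 higher in RC/- than in RC/+ kidneys, where 12.2% of all tested genes were called lower and 25.5% higher. The groups did not overlap in CPM for all 8 genes, against 37.6% of all genes tested. The median log2 fold change was -0.87 over the 8 genes and 0.14 over all genes. TMM scaling, which moved the median of all genes to 0.01, kept the direction of every member, with log2 fold changes of -1.46 for Nphs1, -0.95 for Magi2, 0.33 for Synpo and 0.50 for Plce1.

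The next comparisons asked whether these transcripts differed between RC/- mice with and without the miR-17 motif in the RC allele. The study reported that kidney cysts were largely relieved in edited RC/- mice of this age. Their kidney weight and blood urea nitrogen were close to normal. Loss of the motif and milder disease therefore cannot be told apart here. Both comparisons used the same 5 RC/- kidneys as controls. Nphs1 was at 37.8, 37.9, 32.7, 28.4 and 28.5 CPM in RC/- D18 kidneys and at 33.8, 33.1, 27.5, 33.2 and 25.9 CPM in RC/- D53 kidneys. All of these were above the highest RC/- kidney (18.7 CPM). Nphs1 was 2.53-fold higher in RC/- D18 (log2 fold change 1.34, SE 0.14, adjusted p = 4.21e-08) and 2.35-fold higher in RC/- D53 (1.23, SE 0.14, adjusted p = 4.12e-07) than in RC/-.

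Podocalyxin's gene Podxl stood at 338, 378, 339, 282.5 and 283 CPM in the 5 RC/- D18 kidneys and at 284, 279.7, 293, 332 and 253 CPM in the 5 RC/- D53 kidneys. Both edited groups lay above all RC/- kidneys, with Podxl 2.10-fold (adjusted p = 7.24e-09) and 1.87-fold higher (adjusted p = 2.64e-07, limma). Ptpro gave 31.3, 34.1, 27.2, 23.8 and 25.8 CPM with the D18 deletion and 28.9, 28.6, 26.2, 30.8 and 26.99 CPM with D53. It did not overlap with RC/- in either line and was 2.12-fold (adjusted p = 2.02e-07) and 2.13-fold higher (adjusted p = 5.61e-07).

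Wt1 spread more among RC/- D18 kidneys, at 31.3, 36.5, 26.25, 20.9 and 21.9 CPM, than among RC/- D53 kidneys, at 26.8, 30.6, 28.7, 29.2 and 33.2 CPM. RC/- D18 replicates 21 and 22 fell inside the RC/- range, whose highest kidney was at 22.2 CPM, and the RC/- D53 kidneys all lay above it. Wt1 was 1.79-fold higher in RC/- D18 (adjusted p = 2.51e-04) and 1.98-fold higher in RC/- D53 (adjusted p = 7.35e-05). Magi2, at 9.90, 10.4, 9.46, 9.22 and 9.49 CPM with D18 and at 9.83, 9.20, 8.54, 9.46 and 9.31 CPM with D53, lay above all RC/- kidneys in both lines. It was 1.72-fold (adjusted p = 2.88e-06) and 1.65-fold higher (adjusted p = 1.78e-05).

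Of the genes that rose in RC/- kidneys, Plce1 gave 19.4, 18.7, 17.5, 14.4 and 14.2 CPM with D18 and 16.2, 18.7, 18.2, 16.4 and 14.5 CPM with D53. All were below the lowest RC/- kidney (21.1 CPM), with Plce1 1.44-fold lower in each line (adjusted p = 2.10e-04 for RC/- D18 and 3.74e-04 for RC/- D53). Synpo gave 93.8, 103.5, 100.5, 77.2 and 80.6 CPM in RC/- D18 kidneys and 89.9, 90.4, 106, 108 and 91.7 CPM in RC/- D53 kidneys. Both edited groups overlapped with RC/- replicate 14 (92.3 CPM) and lay below the other 4 RC/- kidneys. Synpo was 1.32-fold lower in RC/- D18 (adjusted p = 0.00375) and 1.23-fold lower in RC/- D53 (adjusted p = 0.0340).

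The RC/- D53 call of Synpo depended on the setting and was lost in 6 of 9 alternatives, for example under TMM scaling (log2 fold change -0.21, adjusted p = 0.103), and without any one of RC/- replicates 13, 16 or 17 or RC/- D53 replicates 23, 24 or 27. The largest adjusted p among these was 0.131, without RC/- replicate 17. Nes gave 77.1, 92.8, 89.9, 61.1 and 50.03 CPM in RC/- D18 kidneys and 81.1, 74.4, 78.9, 78.1 and 77.0 CPM in RC/- D53 kidneys. Both groups overlapped with RC/-. The difference of Nes from RC/- did not pass the test for RC/- D18 (log2 fold change -0.35, 95% interval -0.64 to -0.06, adjusted p = 0.0513) or RC/- D53 (-0.24, -0.53 to 0.05, adjusted p = 0.220). Without RC/- replicate 16 or RC/- D18 replicate 19 or 20, the RC/- D18 difference of Nes passed it, with log2 fold changes of -0.40, -0.44 and -0.42 (adjusted p = 0.0330, 0.0159 and 0.0215).

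**Figure D2:**
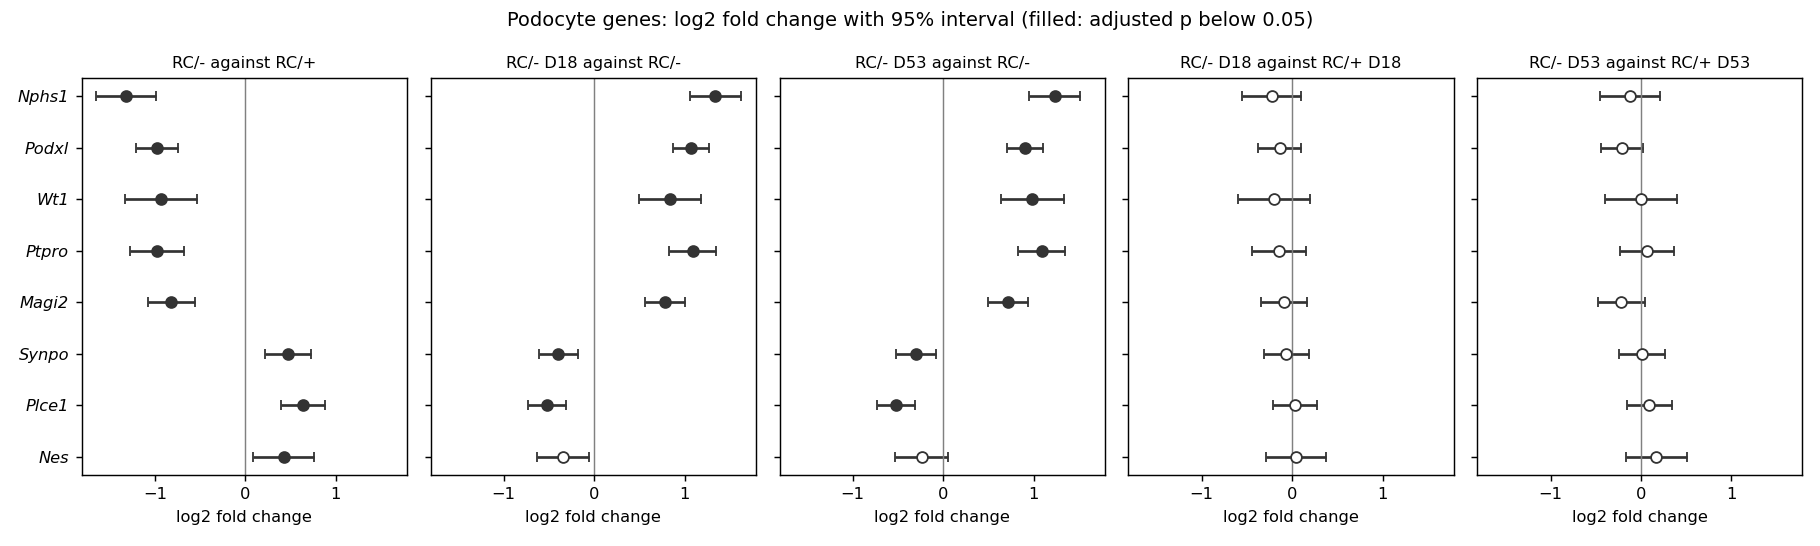
Log2 fold change of the 8 podocyte genes (x axis) in 5 comparisons (panels), with 95% intervals from limma; filled points had an adjusted p below 0.05. Nphs1, Podxl, Wt1, Ptpro and Magi2 lie left of 0 for RC/- against RC/+ and right of 0 for both edited lines against RC/-, the other 3 genes lie on the opposite sides, and no point is filled between RC/- and RC/+ mice of an edited line.

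In RC/- D18 against RC/-, 5 of the 8 genes were thus called higher and 2 lower, where 14.3% of all tested genes were called higher and 26.9% lower. The 8-gene median log2 fold change was 0.81, against -0.10 over all genes. In RC/- D53 against RC/-, 5 were called higher and 2 lower, where 11.3% of all genes were called higher and 18.9% lower, and the medians were 0.81 and -0.08. In both lines the count of members called lower was thus near the share over all genes. CPM did not overlap between groups for 5 of the 8 genes in the first of these comparisons (27.8% of all genes) and for 6 of the 8 in the second (18.8%).

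Libraries with high muscle gene counts make up all of RC/- D53 and 3 of the 5 RC/- D18 kidneys, so they were also fitted as a covariate, which then rests on the 5 RC/- D18 kidneys. The 5 genes that were higher in the edited lines stayed called in both, with larger log2 fold changes (for Wt1 in RC/- D53, 1.55 against 0.99). In this fit 10.9% of all genes were called higher and 16.7% lower in RC/- D18, and 3.81% and 4.15% in RC/- D53. The lower level of Plce1 and Synpo in RC/- D53 was no longer called (-0.21, adjusted p = 0.510, and -0.09, adjusted p = 0.819), nor was that of Synpo in RC/- D18 (-0.27, adjusted p = 0.145), and Nes in RC/- D53 turned to 0.14 (adjusted p = 0.781). Without RC/- D18 replicates 20 to 22, 5 genes were called higher and 1 lower in RC/- D18, where 10.6% and 16.5% of all genes were.

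In mice with an intact floxed allele, none of the 8 genes was called in either edited line. In RC/+ D18 against RC/+, log2 fold changes ran from 0.03 (Nes) to 0.26 (Ptpro) with no adjusted p under 0.98, and 0.00443% of all genes were called. In RC/+ D53 against RC/+ they ran from 0.01 (Nes) to 0.16 (Synpo), and 0.00% of all genes were called. None of the 8 reached an unadjusted p under 0.05 in either comparison, and edgeR and DESeq2 also called none. Podxl was at 322, 368 and 377 CPM in RC/+ D18 and at 332, 324 and 339.75 CPM in RC/+ D53. Against the same 3 RC/+ kidneys, its log2 fold changes were 0.23 (95% interval -0.03 to 0.49) and 0.13 (-0.13 to 0.39). For Nphs1 the intervals, -0.12 to 0.61 and -0.33 to 0.40, leave room for changes of up to 0.61 on the log2 scale.

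Within each edited line, the cystic genotype was compared with its own noncystic mice. In RC/- D18 against RC/+ D18 the log2 fold changes were -0.23 for Nphs1 (95% interval -0.56 to 0.10), -0.14 for Podxl, -0.20 for Wt1, -0.14 for Ptpro, -0.09 for Magi2, -0.06 for Synpo, 0.03 for Plce1 and 0.04 for Nes. None of these was called, and 0.266% of all genes were. For the D53 line the largest were -0.22 for Magi2 (-0.48 to 0.04), -0.21 for Podxl (-0.44 to 0.02) and 0.17 for Nes, again with none called, where 2.60% of all genes were. Between the lines, RC/- D53 against RC/- D18, no gene of the 8 was called (0.266% of all genes), with log2 fold changes from -0.17 (Podxl) to 0.15 (Wt1). The unadjusted p was under 0.05 for none of the 8 in these 3 comparisons, and edgeR and DESeq2 called none.

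The difference between these cystic effects was itself tested, as the RC/- to RC/+ difference of an edited line minus that of the unedited line. The muscle-high libraries 20 to 27 hold edited RC/- kidneys only, so both interactions also carry that set difference. For D18, 4 genes were called higher, where 6.31% of all genes were, with Nphs1 at 1.09 (SE 0.22, adjusted p = 0.00151), Podxl at 0.84 (adjusted p = 6.80e-04), Ptpro at 0.83 (adjusted p = 0.00624) and Magi2 at 0.72 (adjusted p = 0.00588). Plce1 (-0.60, adjusted p = 0.0142) and Synpo (-0.54, adjusted p = 0.0331) were called lower, as were 10.8% of all genes. Wt1 (0.73, adjusted p = 0.0676) and Nes (-0.38, adjusted p = 0.285) did not pass.

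For D53, 5 genes were called higher, where 4.73% of all genes were. These were Nphs1 (1.20, adjusted p = 0.00138), Podxl (0.77, adjusted p = 0.00273), Ptpro (1.04, adjusted p = 0.00184), Wt1 (0.93, adjusted p = 0.0283) and Magi2 (0.60, adjusted p = 0.0298). Plce1 was called lower (-0.54, adjusted p = 0.0365), where 6.55% of all genes were, and Synpo (-0.46, adjusted p = 0.0845) and Nes (-0.25, adjusted p = 0.542) did not pass. The count of 6 called genes for D53 dropped to 3 without RC/+ D53 replicate 10 and to 3 without RC/+ D53 replicate 12.

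Ratios between 2 genes of the same library do not depend on how libraries are scaled. These pairs were chosen after the values were seen and are given as a description with no test. For every 100 Nphs1 reads there were 48.1 ± 7.37 Plce1 reads in RC/+ kidneys (SD, n = 3) and 189 ± 35.2 in RC/- kidneys (n = 5), with the lowest RC/- library at 136 and the highest RC/+ library at 55.6. The ratio was 50.9 ± 1.67 in RC/- D18 and 55.2 ± 7.27 in RC/- D53 (n = 5 each).

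For every 100 Podxl reads there were 28.5 ± 3.13 Synpo reads in RC/+ and 78.6 ± 12.3 in RC/-, then 28.1 ± 0.983 in RC/- D18 and 33.8 ± 2.29 in RC/- D53. Nes reads per 100 Podxl reads were 23.1 ± 5.28 in RC/+ and 60.02 ± 2.92 in RC/-, and 22.6 ± 3.34 and 27.2 ± 2.55 in the edited RC/- lines. RC/- kidneys lay apart from all 5 other groups in each of these 3 ratios. Genes that fell together changed less against each other, with 80.5 ± 4.13 Ptpro reads per 100 Nphs1 reads in RC/+ and 102 ± 6.76 in RC/-, and with 30.6 ± 1.23 and 44.2 ± 9.76 Magi2 reads.

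**Figure D3:**
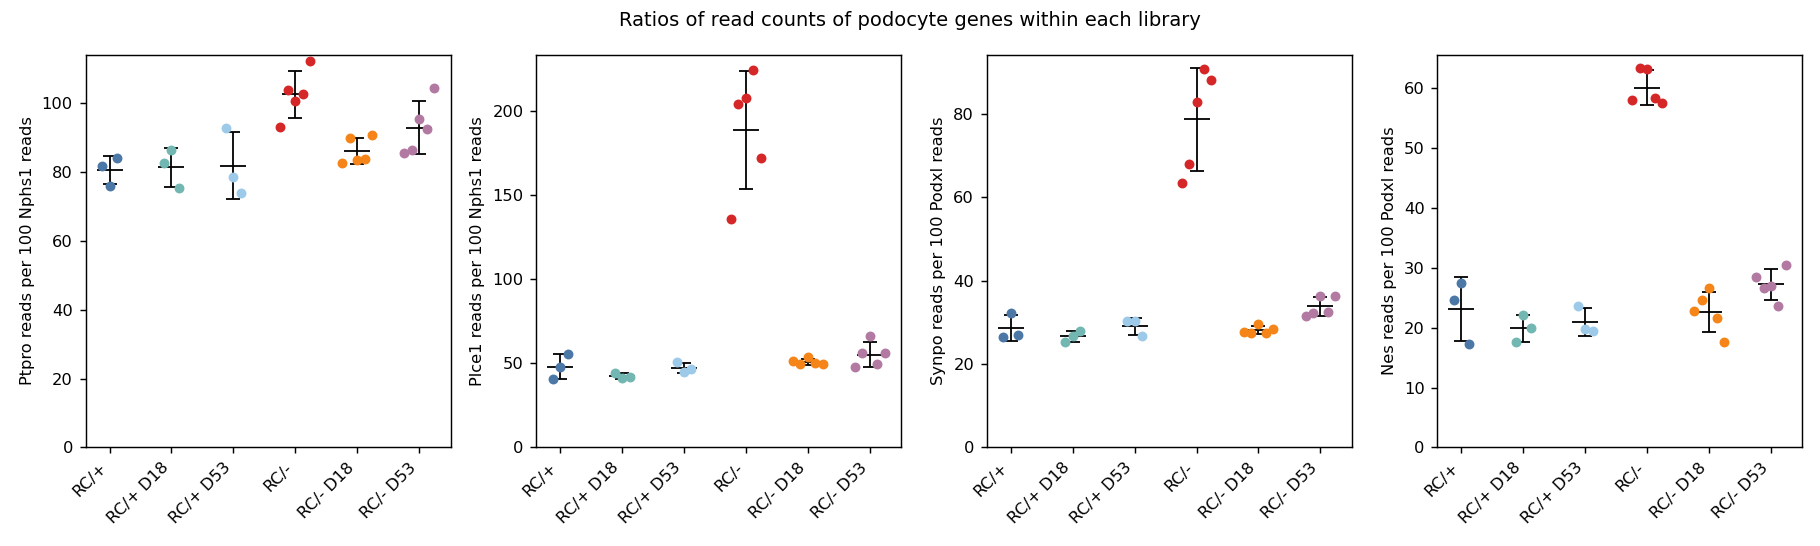
Reads of one podocyte gene per 100 reads of another in the same library, by genotype group, with 1 point per mouse and the mean ± SD. Plce1 to Nphs1, Synpo to Podxl and Nes to Podxl are raised in the 5 RC/- kidneys alone, with no overlap with any other group, while Ptpro to Nphs1 moves from 80.5 to 102.

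To place the 8 genes, 28 other genes of podocyte biology, taken from textbook knowledge, were read in the same fit. In RC/- against RC/+, 14 were called lower, 7 higher and 7 not called, where 12.2% of all tested genes were lower and 25.5% higher. The count called higher was thus near the share over all genes. The median log2 fold change was -0.30 (0.14 over all genes). Among the lowest were Cdkn1c (-1.67), a cell cycle inhibitor of mature podocytes, Ddn (-1.63), which codes for the podocyte protein dendrin, and Robo2 (-1.40), a receptor that binds nephrin through an adaptor. Lmx1b (-1.35), a transcription factor gene of podocytes, was also called lower.

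The genes called highest were Pdpn (2.13), which codes for podoplanin and is also made by lymphatic endothelium and fibroblasts, the integrin gene Itga3 (1.15), Cd2ap (0.77), whose adaptor protein binds nephrin, and the formin gene Inf2 (0.70). Kirrel, which codes for a partner of nephrin in the slit, was called higher as well (0.56). Itga3, Cd2ap and Inf2 are expressed in many epithelia beside podocytes. Slit diaphragm genes were thus found on both sides, with Nphs1 and Magi2 lower and Kirrel and Cd2ap higher.

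In RC/- D18 against RC/-, 14 of the 28 were called higher and 7 lower, where 14.3% and 26.9% of all genes were. The median was 0.37 (-0.10 over all genes). Lmx1b (1.496), Ddn (1.49) and Robo2 (1.27) were among the highest, and Pdpn (-2.01), Itga3 (-0.95), Inf2 (-0.65) and Cd2ap (-0.63) lowest, and Kirrel was called lower at -0.61. In RC/- D53 against RC/-, 14 were called higher and 6 lower, where 11.3% and 18.9% of all genes were. The median was 0.30 (-0.08 over all genes). For both edited lines the count called lower was near the share over all genes. Cdkn1c (1.64), Ddn (1.56) and Lmx1b (1.22) were among the highest, and Pdpn (-1.40), Itga3 (-0.84), Inf2 (-0.60) and Kirrel (-0.48) lowest. With the muscle-high libraries as a covariate, 12 were called higher and 2 lower in RC/- D53, where 3.81% and 4.15% of all genes were.

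**Figure D4:**
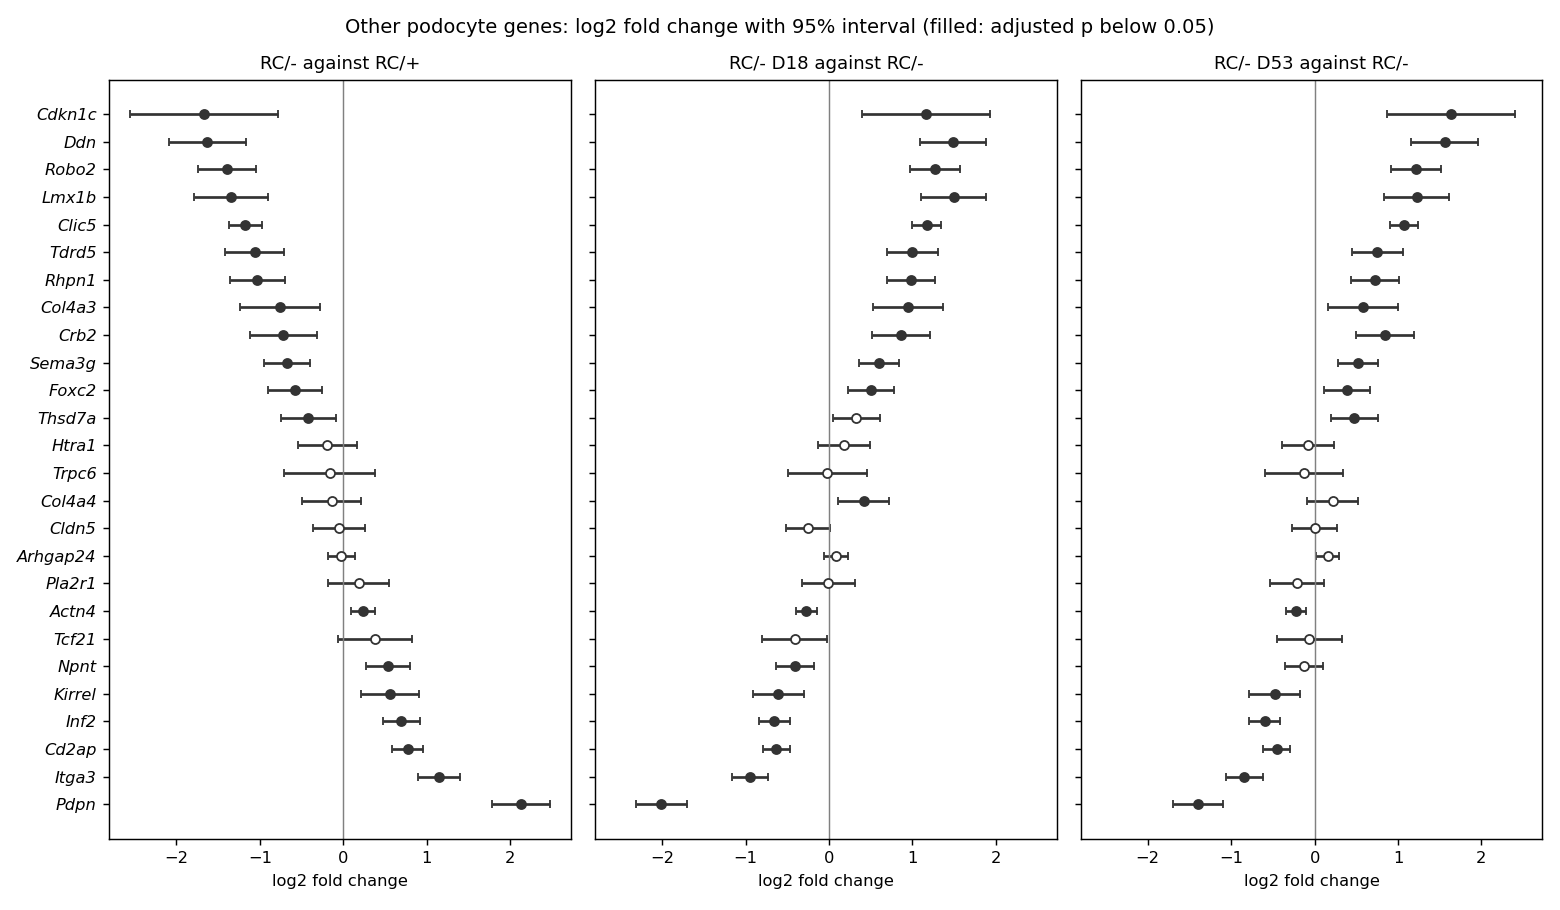
Log2 fold change (x axis) of 26 of the 28 other podocyte genes in 3 comparisons, with 95% intervals from limma; genes are ordered by their value for RC/- against RC/+, and filled points had an adjusted p below 0.05. Cdkn1c, Ddn and Robo2 at the top are lower in RC/- and higher in both edited lines, and Itga3 and Pdpn at the bottom take the opposite sides.

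The podocyte markers Kirrel, Ddn, Lmx1b and Tcf21 were detected in every library. In whole-kidney RNA, detection does not show which cells gave the reads. Of all 6 podocyte markers read, 4 were called lower (12.2% of all genes), 1 higher (25.5%) and 1 neither in RC/-. Ddn and Lmx1b were among those lower and Kirrel was the one higher, while Tcf21 was at a log2 fold change of 0.38 (adjusted p = 0.179).

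Markers of other kidney cells were read in the same comparison, where 25.5% of all tested genes were called higher and 12.2% lower. All 6 macrophage markers were called higher in RC/- (summed level 192 to 202 CPM in RC/+, 343 to 581 CPM in RC/-), as were 4 of 5 fibroblast markers (1089 to 1434 and 2502 to 4016 CPM) and 2 of 3 parietal epithelium markers (158 to 174 and 215 to 305 CPM). Both proximal tubule markers were called lower (4399 to 4884.5 and 879.7 to 2352 CPM), as were both of the thick ascending limb (3788 to 4262 and 1578 to 2978 CPM), while both of the collecting duct were called higher (502 to 766 and 648 to 2286 CPM). Among cells of the glomerulus and vessels, 5 of 9 endothelial markers were called lower and none higher (852 to 1108 and 714 to 1029 CPM), and of 4 mesangial markers 2 were called lower and 1 higher (269 to 347 and 302 to 401 CPM). None of these markers was at 0 in any RC/+ or RC/- library. None of the 6 skeletal muscle markers was called in RC/- against RC/+. The part of these cell types in the levels of Synpo, Plce1, Nes, Pdpn or any other podocyte gene was not tested.

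Between mice of the same group the 8 genes varied together, whichever way they went in RC/- kidneys. With the group means removed, Pearson's r over the 24 libraries was 0.31 to 0.90 (median 0.76) for the 10 pairs among Nphs1, Podxl, Wt1, Ptpro and Magi2, highest for Nphs1 and Ptpro, and 0.58 to 0.69 for the 3 pairs among Synpo, Plce1 and Nes. The 15 mixed pairs were all positive too, at 0.23 to 0.74 (median 0.64). Across all libraries without removing group means, the same 15 pairs ran from -0.74 to -0.16. The libraries share depth and composition within a kidney, so that these values are descriptions with no test.

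**Figure D5:**
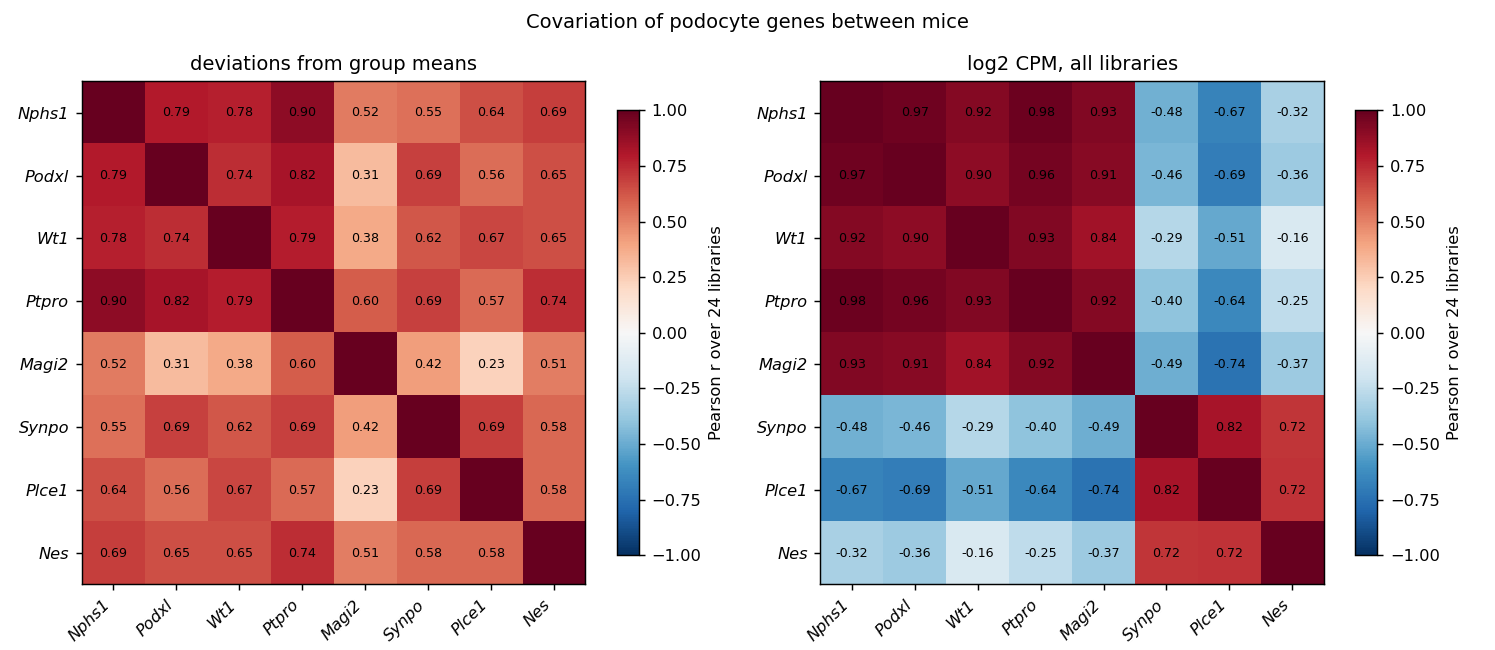
Pearson's r between the 8 podocyte genes over 24 libraries, on deviations of log2 CPM from the group mean (left) and on log2 CPM itself (right); colour and printed value both give r. All 28 pairs are positive on the left, whereas the 15 pairs that join Nphs1, Podxl, Wt1, Ptpro or Magi2 with Synpo, Plce1 or Nes run from -0.74 to -0.16 on the right.

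Genes outside the 8 were ranked by r between their deviations and the mean deviation of the 8 genes, over 24 libraries and 15107 genes whose log2 CPM averaged 0 or more. The 10 most alike were Adamts15 (0.91), Nup155, Neo1, Ppp1r12a, Adgrl3, Sema4c, Kcnf1, Nup160, Usp28 and Trp53bp1 (0.85). Of these, Adamts15 (log2 fold change -0.87, adjusted p = 3.27e-04) and Kcnf1 (-2.12, adjusted p = 8.35e-05) were also called lower in RC/- than in RC/+. Neo1 (0.28), Ppp1r12a (0.28), Usp28 (0.45) and Trp53bp1 (0.63) were called higher, and the other 4 were not called. From the list of 28 podocyte genes, Robo2 (rank 15, r = 0.84), Thsd7a (rank 22, 0.81) and Kirrel (rank 89, 0.77) were among the nearest. The farthest were Arhgap24 (rank 8382, 0.13), Trpc6 (rank 9786, 0.04), Itga3 (rank 10059, 0.02) and Htra1 (rank 12530, -0.18). The list as a whole therefore ran from near to far.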

How the data were processed

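Paired reads of whole kidneys were trimmed with Trim Galore 0.6.3 and aligned to GRCm38 with STAR 2.5.3a by the authors, who deposited raw read counts per Ensembl gene. Which strand column was kept is not given in the sources used here. All 24 columns were matched to samples by number, with 0 columns unused, and 343 rows without a symbol held at most 0.0261% of a library.

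Log2 CPM (prior count 2, total-count scaling) was computed with edgeR 4.0.16 and tested two-sided with limma 3.58.1 (limma-trend, R 4.3.3), with 1 mean per group over the 24 libraries, for genes whose log2 CPM averaged -3 or more. P-values were adjusted by Benjamini-Hochberg over 22570 genes in each of 8 comparisons and 2 interactions, and called below 0.05. The p-values measure the spread between mice. The script was tested on simulated counts. DESeq2 1.42.0 served as an alternative. Libraries of a group were checked not to be copies (chi-square per degree of freedom 8.45 to 48.2 over 39 pairs). Loci and exon lengths came from GENCODE M21, which matched 54495 of 54532 identifiers. Sex was read from the counts, giving 14 females and 10 males.

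The 8 genes and all lists were chosen with earlier results of these data known. Named from the 28 other podocyte genes were, per comparison, the 4 called highest and 4 called lowest, and always Kirrel and Lmx1b; 2 genes of this list count in its totals but are not reported here by name. The pairs for read ratios, the genes named by rank outside the 10 most alike, and Tcf21 were chosen after their values were seen.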

Additional observations from a re-analysis of the deposited data

Results flagged for a closer look

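For 13 results, either 1 kidney stood apart from its group or the effect of the cystic genotype differed between an edited and the unedited line. Plce1 was at 21.1 CPM in RC/- replicate 14, while the other 4 RC/- kidneys were between 24.2 and 25.4 CPM. This was the only case among the 8 genes in the 3 groups of 5 mice (24 sets of values), and chance marks about 1 in 20. Without this kidney the direction and call of Plce1 were kept.

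The cystic effect differed between D18 and the unedited line for Nphs1 by 1.09, Podxl by 0.84, Ptpro by 0.83, Magi2 by 0.72, Synpo by -0.54 and Plce1 by -0.60 on the log2 scale (limma interaction, adjusted p = 0.00151, 6.80e-04, 0.00624, 0.00588, 0.0331 and 0.0142). For D53 the differences were 1.20 for Nphs1, 0.77 for Podxl, 0.93 for Wt1, 1.04 for Ptpro, 0.60 for Magi2 and -0.54 for Plce1 (adjusted p = 0.00138, 0.00273, 0.0283, 0.00184, 0.0298 and 0.0365). Both interactions share the RC/+ and RC/- kidneys. Each also carries the set difference of libraries 20 to 27, which hold edited RC/- kidneys only.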

How the results depend on the processing

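No paired analysis was possible because the labels used here give each mouse a replicate number but no litter. The study bred these genotypes from the same breeding pairs, so littermates may sit in different groups. Nphs1, Podxl, Wt1, Ptpro and Magi2 kept direction and call in RC/- against RC/+ and in both edited lines against RC/- under all 9 alternatives (TMM factors, edgeR, DESeq2, no expression limit, a limit of 0, sex or libraries 20 to 27 as a covariate, a prior count of 0.5, only the compared groups) and without each library in turn. Nes in RC/- D53 against RC/- reversed from -0.24 to 0.14 with libraries 20 to 27 as a covariate, a set that cannot be told apart from RC/- D53 except through 5 RC/- D18 kidneys. The cause was not tested. The number of members called in the D53 interaction ranged from 3 to 7 when 1 library was left out (6 with all), with 3 without RC/+ D53 replicate 10 or 12. With 3 mice in each RC/+ group, the 95% intervals of RC/+ D18 and RC/+ D53 against RC/+ reach 0.61 on the log2 scale for Nphs1.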
